A study of Mus musculus with 2 samples.

Results

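Aquaporins are channel proteins that let water, and in some members glycerol or other small solutes, cross cell membranes. The genes described here are Aqp1, Aqp3, Aqp4, Aqp5, Aqp7, Aqp8, Aqp9 and Aqp11, which are 8 of the 12 aquaporin symbols among the 40879 gene symbols counted in the intestine of ERAP1 wild-type (WT) and ERAP1+/- mice. They were taken by symbol, and the family was chosen by the read counts themselves: it was selected on the large difference of Aqp4 in earlier results of these same data, so that the difference of Aqp4 is a description and not a test. The other 4 symbols had almost no reads. Aqp2 and Mip had none in either library, Aqp6 had 0 in WT and 1 in ERAP1+/-, and Aqp12 had 0 and 4.

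The study asked how partial loss of ERAP1, an aminopeptidase that trims antigenic peptides in the endoplasmic reticulum, affects colitis, and RNA sequencing of the intestine compared the genotypes. The mice were C57BL/6, 8 weeks old at the start, and the ERAP1+/- mice carried 1 allele of Erap1 from which exons 6 and 7 had been deleted with Cre recombinase. The methods call the mice germ-free and place them in a specific pathogen-free facility. The labels name no treatment, and the control mice of the study drank plain water for 28 days. Equal amounts of RNA from 3 mice per genotype were pooled into 1 library, so that no difference below has a replicate check and no p-value is given. The label gives the tissue only as intestine.

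Aquaporins assemble as tetramers in which each subunit holds its own pore. The pore is lined by a pair of short loops that carry the signature asparagine-proline-alanine (NPA). Water-selective members (Aqp1, Aqp4, Aqp5) are told apart from the aquaglyceroporins (Aqp3, Aqp7, Aqp9), which also pass glycerol. Aqp8 conducts water, ammonia and hydrogen peroxide, and Aqp11 is a divergent member found in the membranes of the endoplasmic reticulum. In the colon, which reclaims water from the gut content, Aqp8 lies at the apical side of surface epithelial cells and Aqp3 and Aqp4 at their basolateral side.

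The coding sequence of the boxes is shown because it sets the glycerol channels apart from the water channels, the division along which the values below are ordered. Each line gives 27 bases of the coding strand, 5′ to 3′, from the transcripts of GENCODE M21 (GRCm38), with the 9 bases of the box in capitals. A further GAC in capitals is the aspartate codon that follows the arginine codon behind the second box. All 8 genes matched the annotation by symbol.
Aqp1 first box: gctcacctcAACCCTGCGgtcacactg
Aqp1 second box: tgcggtatcAACCCTGCCcggtcattt
Aqp8 first box: ggacacttcAACCCTGCTgtgtcgctg
Aqp8 second box: gcctgcatgAACCCTGCTcgtgccttt
Aqp3 first box: gcccacttgAACCCCGCTgtgaccttc
Aqp3 second box: tatgccgtcAACCCTGCCcgtGACttt
Aqp9 first box: ggccacatcAACCCAGCGgtgtctttt
Aqp9 second box: tgtgccatgAACCCTGCTcgaGACctc
Aqp7 first box: gcccacatgAATGCCGCAgtgactttc
Aqp7 second box: tatgcaatcAACCCATCCcgtGACctg
Aqp11 first box: acagctagcAACCCGTGCggcgtgatg
Aqp11 second box: gcattgtttAACCCAGCGctggcactt

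The boxes were searched in frame on the coding strand only, as AACCCNGCN or AATCCNGCN, where N is any base. Both boxes matched in 6 of the 8 genes, namely Aqp1, Aqp3, Aqp4, Aqp5, Aqp8 and Aqp9. Of 21877 coding genes, 7.5% held 1 or more such matches and 0.718% held 2 or more, so that a single match is a common find. Aqp7 had no NPA match, and Aqp11 had it only in its second box. Both boxes of Aqp7 and the first box of Aqp11 above were placed by related codons. The aspartate codon stood behind the second box of the 3 aquaglyceroporins and of no other member. The starts of the boxes lay 132 codons apart in Aqp3, Aqp7 and Aqp9, 116 codons apart in Aqp1, Aqp4 and Aqp5, 118 in Aqp8 and 117 in Aqp11.

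In all, 8114826 reads were counted for WT and 8907515 for ERAP1+/-, of which mitochondrial and ribosomal RNA took 18% and 16.7%. Erap1 itself had 229 reads in WT and 2 in ERAP1+/-, a ratio of 0.0073 for mice that the labels call heterozygous. With a 95% interval from 0.000878 to 0.0267, this ratio is low for mice that keep an intact allele. Where the reads of Erap1 lie relative to the deleted exons was not examined, so this count alone does not check the deletion. The genotype was not tested, and ERAP1+/- below means the library labelled as the hetero type. Levels are in CPM, the reads of a gene per 1000000 reads of a library size that was adjusted with TMM factors (trimmed means of log ratios). Differences are ERAP1+/- minus WT in log2(CPM + 1), in which genes with few reads appear less changed than they are. The 95% intervals are exact but take in counting error alone. Where no read was counted, the true value may reach 3 reads, which is 0.386 CPM for WT and 0.322 CPM for ERAP1+/-. The libraries stood apart in tissue markers. The summed level of 10 stratified epithelium genes was 2056 CPM in WT and 29.8 CPM in ERAP1+/-, and that of 10 skeletal muscle genes was 796 and 18.5 CPM. The methods do not give the sex of the mice, and sex-linked genes differed between the libraries as well. Xist had 1635 and 6451 reads, while all 4 Y-linked genes were more than 2-fold lower, such as Ddx3y with 319 and 29 reads. Each library is the only one of its genotype, so these differences and the genotype cannot be told apart. In bulk tissue, fewer cells of a type and less RNA per cell cannot be told apart either.

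The label of the tissue was compared with marker genes. Hoxb13, a homeobox gene of the most distal gut, had 3176 reads in WT and 2848 in ERAP1+/-, and the colonocyte carbonic anhydrase Car1 had 13814 and 9366. Of 10 markers of small intestine enterocytes, 3 had at least 10 reads over both libraries. These were the glucose transporter Slc5a1 with 1273 and 1201 reads, Fabp2, a fatty acid binding protein, with 56 and 299, and the retinol binding protein gene Rbp2 with 52 and 34, whereas Sis (sucrase-isomaltase) and Apoa4 had no read in either. Of the 6 gastric markers in the files, none reached 10 reads, and the proton pump genes Atp4a and Atp4b, which mark the parietal cells where Aqp4 is abundant, had 2 reads in each library and 0 in each.

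Across the family, 6 of the 8 aquaporins had a lower log2 value in ERAP1+/- and 2, Aqp4 and Aqp1, a higher one. For 3 of the 8 (Aqp1, Aqp5 and Aqp7) the interval of the ratio holds 1, so their direction is not set beyond counting error. A level of 4 or more on the log2 scale, in either library or both, was reached by 8013 genes. Of the 4 aquaporins past it (Aqp1, Aqp4, Aqp8 and Aqp11), Aqp4 was more than 2-fold higher and none was more than 2-fold lower. Among all genes past that level, 5.34% were more than 2-fold apart and 1.39% were more than 2-fold higher. All 8 had at least 10 reads over both libraries, and by that rule 1 was more than 2-fold higher, 2 (Aqp3 and Aqp9) were lower and 5 were within 2-fold. Aqp7, with a CPM ratio of 0.209, is among these 5 because log2(CPM + 1) shrinks the difference of genes with few reads. Over the 16142 genes with at least 10 reads, 2.99% were more than 2-fold higher and 5.63% were lower. The median log2 difference of the 8 was -0.41, that of genes past the level was -0.026 and that of genes with at least 10 reads was 0.002. Because the family was selected with these values known, the counts describe it and support nothing further.

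**Figure D1:**
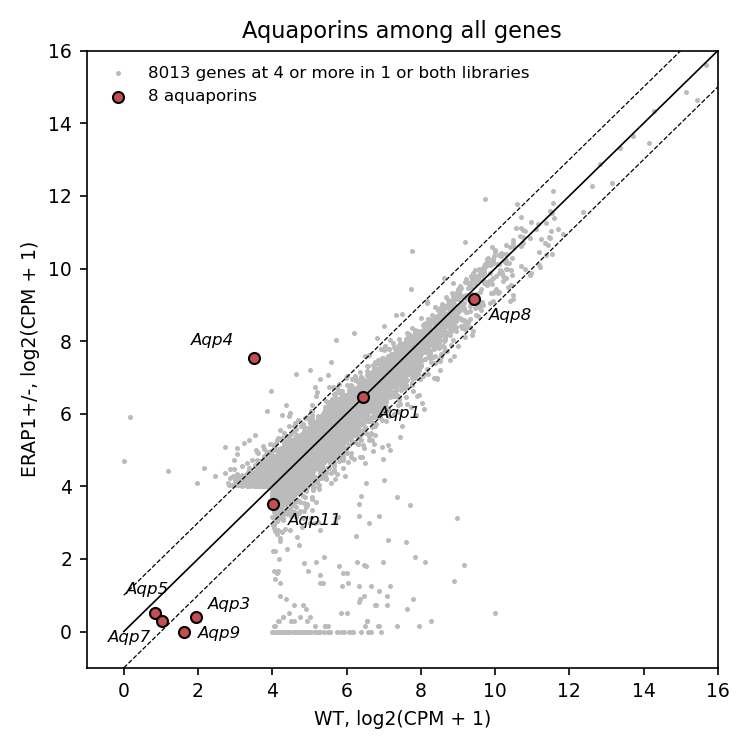
Log2(CPM + 1) in the ERAP1+/- library against the WT library for the 8013 genes at 4 or more in 1 or both libraries (grey) and for the 8 aquaporins (red); the solid line is equality and the dashed lines are 2-fold. Aqp1, Aqp8 and Aqp11 lie within the dashed lines, Aqp4 lies 4.04 above equality, and Aqp3, Aqp5, Aqp7 and Aqp9 lie below the level of 4 in both libraries.

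Aqp4, a water channel best known from the end-feet of astrocytes in the brain, was the only aquaporin more than 2-fold higher in ERAP1+/-. Its reads numbered 80 in WT and 1719 in ERAP1+/-, which is 10.3 CPM (95% interval 8.16 to 12.8) and 185 CPM (176 to 194). The intervals lie far apart, and the level in ERAP1+/- was 17.9 times that in WT (95% interval 14.3 to 22.8), a difference of 4.04 on the log2(CPM + 1) scale. Counted from the gene with the most reads, Aqp4 stood at rank 8807 in WT and at rank 795 in ERAP1+/-. Among the 8013 genes past the level of 4, the differences of Reg3b and Reg3g, antimicrobial lectins of the gut epithelium, were higher than that of Aqp4, which had the third highest.

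Aqp4 spans 15389496 to 15410982 on chromosome 18 (GRCm38, minus strand), and its transcript Aqp4-201 has 5 exons and a 3' untranslated region of 3958 bases. The library method reads the 3' ends of polyadenylated transcripts. None of the 1579 words of 50 bases in the last 500 bases of its transcripts occurred in a transcript of another gene, so that reads there match no other annotated transcript. An antisense gene, AC133525.2 (15403087 to 15430790), overlaps the 5' part of Aqp4 on the other strand. Its symbol is not among those in the count tables, and whether the counting used strand is not given in the sources used here. Of 3 coding genes within 500000 bases, Kctd1 had 75 reads in WT and 111 in ERAP1+/-, Taf4b had 17 and 66 and was more than 2-fold higher, and Chst9, the nearest, had none in either. These neighbours were looked at after the values of Aqp4 were known.

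Aqp1, a water channel of red blood cells and of the endothelium of small vessels, was at the same level in both libraries within counting error. It had 665 reads in WT and 814 in ERAP1+/-, or 85.6 and 87.5 CPM, a ratio of 1.02 with an interval from 0.922 to 1.13. The gene spans 55336432 to 55348555 on chromosome 6 (plus strand). Of marker genes, none of 8 for blood endothelium and none of 5 for red blood cells was more than 2-fold apart. Their median log2 differences were -0.14 and 0.25, and 4 genes of each list were above 0. Pecam1, an adhesion molecule of endothelial cells, had 283 and 369 reads, a ratio of 1.09 (0.93 to 1.28). The haemoglobin gene Hba-a1 had 523 and 744, a ratio of 1.19 (1.06 to 1.33). The part of these cells in the level of Aqp1 was not tested.

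Aqp5, the water channel of salivary, tear and sweat glands, was near the limit of detection. It had 6 reads in WT and 4 in ERAP1+/-, a ratio of 0.557 with an interval from 0.116 to 2.35, so that a difference was not detectable at this depth. The gene spans 99590782 to 99594829 on chromosome 15 (plus strand), between Aqp2 and Aqp6, which had 0 to 1 read. Of 8 genes of exocrine gland acini, only Bhlha15, a transcription factor of secretory cells, reached 10 reads, with 3 in WT and 15 in ERAP1+/-, while the gland products Bpifa2 and Pip had none in either library.

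**Figure D2:**
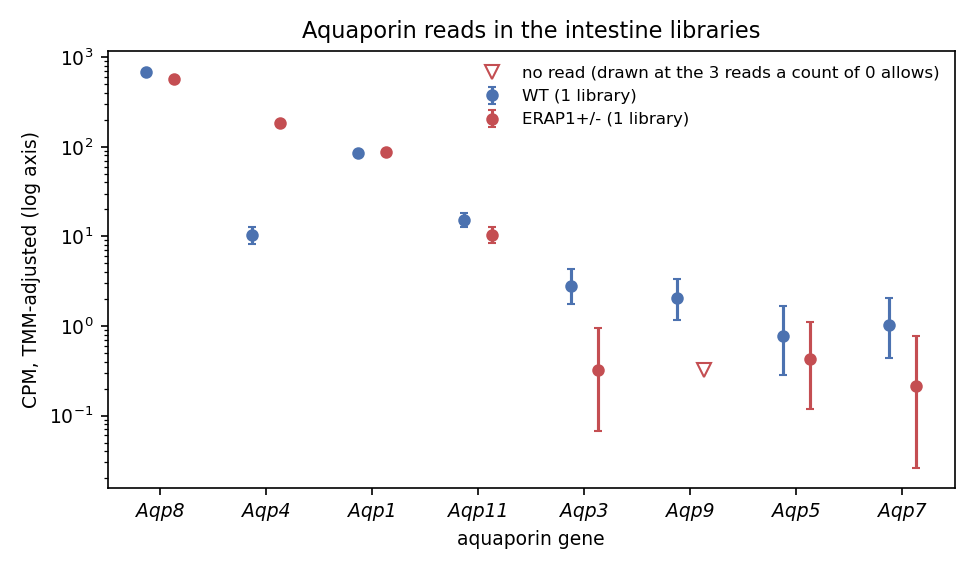
Level of each aquaporin in TMM-adjusted CPM on a log axis, for the WT library (blue) and the ERAP1+/- library (red), 1 library each, with exact 95% intervals for counting error. Aqp4 lies at 10.3 CPM in WT and 185 CPM in ERAP1+/-, Aqp1 and Aqp8 lie close together, and the open triangle marks Aqp9, which had no read in ERAP1+/- and is drawn at the 0.322 CPM that a count of 0 allows.

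Aqp8 was the aquaporin with the most reads in both libraries. It had 5360 reads in WT and 5329 in ERAP1+/-, or 690 CPM (95% interval 671 to 709) and 573 CPM (558 to 588), a level 1.2-fold lower in ERAP1+/- (1.16 to 1.25). The intervals do not overlap, but they hold no variation between mice, and the log2 difference of -0.27 moved to -0.14 when libraries were scaled by their total counts. The gene spans 123462291 to 123468004 on chromosome 7 (plus strand). It ranked 158 among all genes in WT and 184 in ERAP1+/-. The 3 genes nearest to it in the plane of the log2 values were Laptm4a, Ctnnb1 and Srrm2, which are genes of many cell types.

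Of 10 markers of surface colonocytes, the cells in which Aqp8 is known to lie, 2 were more than 2-fold lower and 8 were within 2-fold. The summed level of these markers was 19596 CPM in WT and 11702 CPM in ERAP1+/-, with a median log2 difference of -0.78, against -0.27 for Aqp8. Lypd8, a secreted protein that keeps bacteria from the epithelium, had 70445 and 48750 reads, and Muc3, a membrane mucin, had 21299 and 14991. Car4 (15163 and 8391 reads) and Krt20 (5156 and 2674 reads) were more than 2-fold lower, and Guca2a, the precursor of guanylin, was the only marker above 0, with 3280 and 5221 reads. The part of these cells in the levels of Aqp8 and Aqp4 was not tested.

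Aqp11 had 118 reads in WT and 97 in ERAP1+/-, or 15.2 CPM (12.6 to 18.2) and 10.4 CPM (8.46 to 12.7), which is 1.46-fold lower (95% interval 1.1 to 1.93). The intervals of its levels overlap slightly, and its difference of -0.50 is within 2-fold. The gene spans 97724006 to 97738289 on chromosome 7 (minus strand), and 2 of 1845 words at its 3' ends also occur in other genes.

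The aquaglyceroporins were low in WT and close to 0 in ERAP1+/-. Aqp3, Aqp7 and Aqp9 together had 46 reads in WT and 5 in ERAP1+/-, which is 5.92 and 0.537 CPM, or 11-fold lower with an interval from 4.39 to 35.5. Aqp3, which is also the aquaporin of epidermal keratinocytes, had 22 and 3 reads and was 8.78-fold lower (2.64 to 45.8). Aqp9, the glycerol channel of liver cells that is also found in leukocytes, had 16 and 0 reads. Against the 3 reads that a count of 0 allows, Aqp9 was at least 6.38-fold lower, a value that leaves out the counting error of the 16 WT reads; with that error taken in, the exact 95% limit is 4.62-fold. Aqp7, which releases glycerol from fat cells, had 8 and 2 reads, a ratio of 0.209 whose interval from 0.0216 to 1.05 holds 1.

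None of the 3 reached the level of 4 on the log2(CPM + 1) scale, so a rule with that level leaves them out. Aqp3 (41092722 to 41098183) and Aqp7 (41033074 to 41048139) lie on the minus strand of chromosome 4, with 44583 bases between them. Leaving out the aquaporins themselves, none of the 16 coding genes with at least 10 reads within 500000 bases of either was more than 2-fold apart. Aqp9 spans 71110659 to 71168682 on chromosome 9 (minus strand), where the antisense gene Gm32511, with no read in either library, overlaps it. At the 3' ends of Aqp7, 81 of 956 words also occur in 190 other genes, so its few reads are uncertain, whereas no word of Aqp3 or Aqp9 is shared.

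Markers of stratified epithelium and skeletal muscle were lower in ERAP1+/-. All 10 stratified epithelium genes were more than 2-fold lower in ERAP1+/-, with a median log2 difference of -4.04, and Ivl and Trp63 were at 0 there. Flg, which encodes filaggrin of the outer epidermis, had 7952 and 4 reads, and Krt10, a keratin of the same layers, had 3922 and 72. Of 10 skeletal muscle genes, 9 were more than 2-fold lower on the log2(CPM + 1) scale, among them the muscle actin Acta1 with 1490 and 42 reads. The other, Myh4, had 9 and 2 reads, a CPM ratio of 0.186. Aqp4, which is also found in the membrane of fast muscle fibres, was higher in ERAP1+/-. The part of epidermal or muscle tissue in the reads of Aqp3, Aqp9 and Aqp4 was not tested.

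Fat cell markers differed in both directions. The summed level of 8 adipocyte genes was 129 CPM in WT and 216 CPM in ERAP1+/-, and their median log2 difference was 0.65. Adipoq, which encodes adiponectin, had 34 and 124 reads and Cfd, the fat cell protease adipsin, had 163 and 558, both more than 2-fold higher, whereas Retn (61 and 30 reads) was more than 2-fold lower. Of 12 genes that handle glycerol and stored fat, only Mgll, the lipase that frees glycerol from monoacylglycerol, was more than 2-fold apart, with 2087 reads in WT and 648 in ERAP1+/-. The median of these genes was -0.11. Gpd2, the mitochondrial glycerol phosphate dehydrogenase, had 1938 and 1511 reads.

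Neutrophil markers, listed because Aqp9 occurs in leukocytes, were divided, with a median log2 difference of 1.35 over 4 genes. S100a8 (49 and 165 reads), S100a9 (52 and 171) and Retnlg (0 and 18) were more than 2-fold higher in ERAP1+/-, and Ly6g (2867 and 1367) was more than 2-fold lower. The other 3 of the 7, Csf3r, Cxcr2 and Mmp8, had fewer than 10 reads over both libraries.

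**Figure D3:**
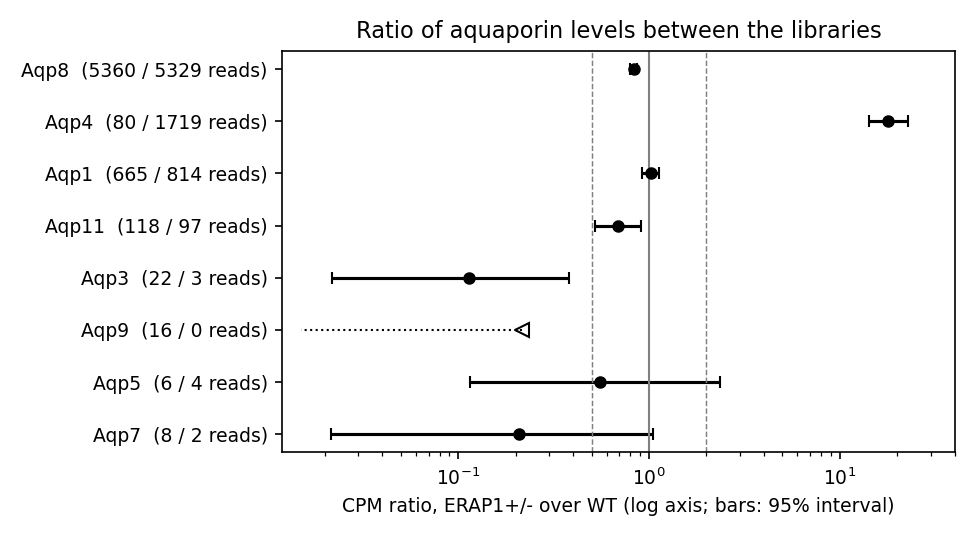
Ratio of the CPM in ERAP1+/- to that in WT for each aquaporin on a log axis, with the reads of WT and ERAP1+/- beside the name; bars are exact 95% intervals for counting error, the solid line is a ratio of 1 and dashed lines are 2-fold. Aqp4 alone lies above 2, the intervals of Aqp1, Aqp5 and Aqp7 hold 1, and the open triangle is the upper limit for Aqp9, whose ratio is 0.

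The share of each gene among the aquaporin reads does not depend on how the libraries are scaled. All aquaporin symbols together had 6275 reads in WT and 7973 in ERAP1+/-, or 0.0773% and 0.0895% of all reads. Aqp8 took 85.4% of the aquaporin reads in WT (95% Clopper-Pearson interval 84.5 to 86.3) and 66.8% in ERAP1+/- (65.8 to 67.9). Aqp4 took 1.27% (1.01 to 1.58) and 21.6% (20.7 to 22.5). The share of Aqp1 was 10.6% and 10.2%, and that of Aqp11 was 1.88% and 1.22%. The shares of Aqp8 and Aqp4 differed by more than their intervals, while those of Aqp1 (9.85 to 11.4 and 9.55 to 10.9) overlapped. Shares within a library sum to 100%, so a larger share of Aqp4 leaves less for every other gene. Aqp8 had 5360 reads in WT and 5329 in ERAP1+/-, so its smaller share is no separate sign of a drop. The similar shares of Aqp1 are bound to Aqp4 in the same way.

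For each read of Aqp4 there were 67 reads of Aqp8 in WT and 3.1 in ERAP1+/-. The odds of an Aqp4 read against an Aqp8 read were 21.6 times higher in ERAP1+/- (95% interval 17.2 to 27.5), and against an Aqp1 read 17.6 times higher (13.7 to 22.7). Between Aqp1 and Aqp8 the same ratio was 1.23 (1.1 to 1.38), and between Aqp11 and Aqp8 it was 0.827 with an interval from 0.624 to 1.09 that holds 1. The summed level of all aquaporins was 808 CPM in WT and 857 CPM in ERAP1+/-, a ratio of 1.06 (1.03 to 1.1). Without Aqp4 the sum was 797 and 672 CPM, a ratio of 0.843 (0.814 to 0.874), so the sum of the family was higher in ERAP1+/- with Aqp4 and lower without it.

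**Figure D4:**
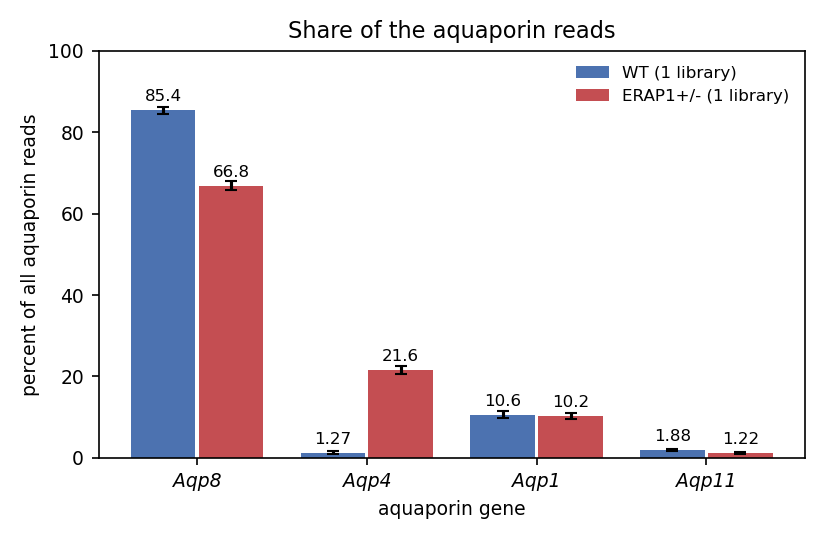
Percent of all aquaporin reads taken by Aqp8, Aqp4, Aqp1 and Aqp11 in the WT library (blue) and the ERAP1+/- library (red), with exact 95% intervals for counting error. The share of Aqp8 is 85.4% in WT and 66.8% in ERAP1+/-, that of Aqp4 is 1.27% and 21.6%, and the shares of Aqp1 are close.

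The order of the genes by reads changed only by the place of Aqp4 among those with many reads. In WT the order was Aqp8, Aqp1, Aqp11, Aqp4, Aqp3, Aqp9, Aqp7 and Aqp5, where the counting intervals of Aqp11 and Aqp4 overlapped, as did those of each neighbouring pair from Aqp3 to Aqp5. In ERAP1+/- it was Aqp8, Aqp4, Aqp1 and Aqp11, with no overlap between neighbours, and then Aqp5, Aqp3, Aqp7 and Aqp9, whose neighbours all overlapped. In 3' sequencing the reads of a gene do not grow with its length, so they were not divided by it, and the order between genes also depends on how well each 3' end was captured.

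Proteins of the dystrophin complex anchor Aqp4 in membranes, and only their RNA was measured here. Of 13 genes of the dystrophin complex and other known partners with at least 10 reads, 12 were within 2-fold. The log2 value was lower in ERAP1+/- for 9 and higher for 4, with a median difference of -0.23. Dag1, which encodes dystroglycan, had 2095 and 2341 reads, Dmd (dystrophin) had 980 and 848, its relative Utrn had 875 and 1144, and Dtna (dystrobrevin) had 410 and 353. Kcnj10, a potassium channel found beside Aqp4 in glia, was more than 2-fold higher, at 2 reads in WT and 16 in ERAP1+/- (ratio 6.68, 95% interval 1.57 to 59.9). Of 6 enteric glia markers none was more than 2-fold apart, with a median of -0.20, and S100b had 86 and 103 reads.

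Water follows salt across the colon, and the genes of that salt transport differed in both directions. Of 24 such genes, all with at least 10 reads, 3 were more than 2-fold higher and 2 were lower, and the median log2 difference was -0.10. The higher ones were Cftr, the chloride channel of secretion, with 352 and 978 reads, Kcnn4, a potassium channel that aids secretion, with 121 and 317, and Slc9a3, a sodium-proton exchanger of absorption, with 7 and 60. The lower ones were Atp12a, the proton pump of the distal colon, with 4562 and 2573 reads, and Slc4a4, a bicarbonate transporter, with 2560 and 1166. Atp1b1, a subunit of the sodium pump (17208 and 20185 reads), and the chloride exchanger Slc26a3 (8144 and 6433) were within 2-fold.

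Of 14 genes that make or remove hydrogen peroxide, which Aqp8 conducts, only Nox1, the oxidase of the colon epithelium, was more than 2-fold apart, at 20 reads in WT and 111 in ERAP1+/-. Their median log2 difference was 0.05, and Prdx6, a peroxiredoxin and the most abundant of them, had 41261 and 28248 reads.

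The genes with a pattern most like that of Aqp4, by the distance between their pairs of log2(CPM + 1) values over the 2 libraries, were Ang4 (distance 1.02), Igkc (1.23) and Clca3b (1.49). Ang4, an antimicrobial ribonuclease of Paneth and goblet cells, had 114 and 911 reads, the immunoglobulin light chain gene Igkc had 187 and 1266, and Clca3b had 104 and 624. With 2 libraries such a distance compares levels only, and none of the 3 genes lay close to Aqp4. Their log2 differences were 2.66, 2.45 and 2.24, against 4.04 for Aqp4. For Aqp8, by comparison, the 3 nearest genes lay at distances of 0.00549 to 0.0486. Of 8 Paneth cell markers 3 had at least 10 reads. Among these, Lyz1 (89 and 51 reads) was lower and Itln1 (9 and 22) higher, both within 2-fold on the log2 scale, Ang4 was more than 2-fold higher, and 4 defensin genes were at 0 in both libraries.

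All 9 Hox genes of the distal gut had a lower log2 value in ERAP1+/-. Their median log2 difference was -0.63, and 6 were within 2-fold. The other 3, Hoxd11 (607 and 323 reads), Hoxd12 (82 and 25) and Hoxc10 (14 and 2), were more than 2-fold lower. Hoxd13 had 918 and 548 reads, a CPM ratio of 0.499 that the log2(CPM + 1) scale places just within 2-fold. Hoxa13 had 28 and 33, a ratio of 0.984 (95% interval 0.577 to 1.69). Their part, and that of the piece of gut taken, in the level of Aqp4 was not tested.

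**Figure D5:**
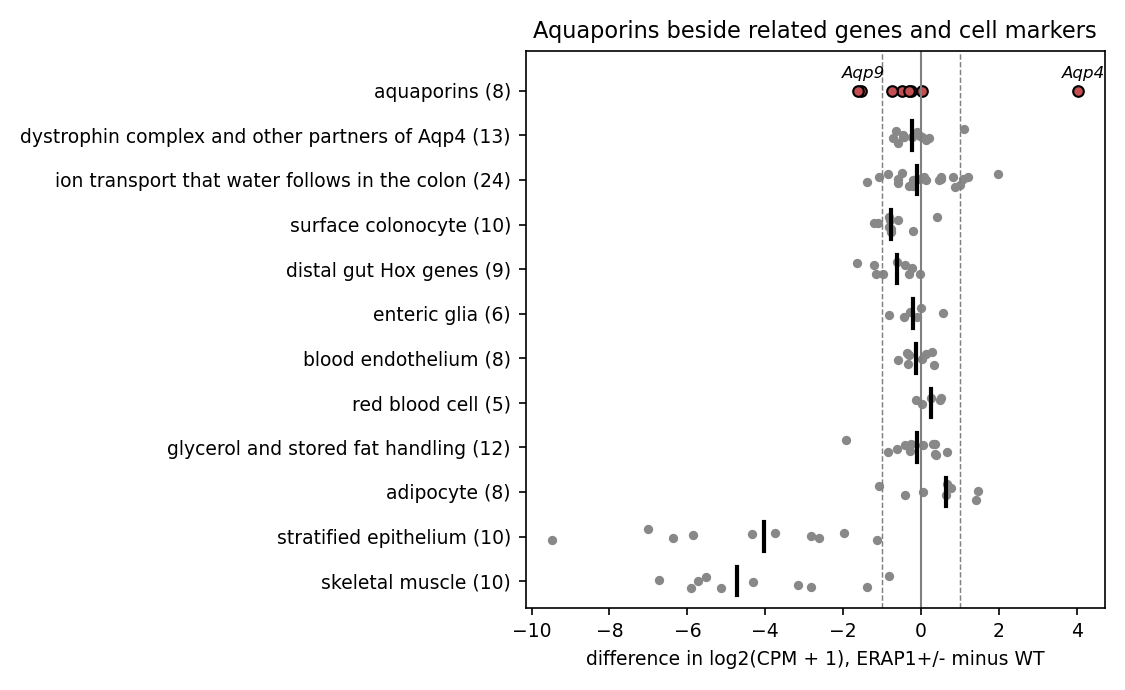
Difference in log2(CPM + 1), ERAP1+/- minus WT, for the 8 aquaporins (red) and for the genes of 11 lists with at least 10 reads over both libraries (grey points, with the number of genes in parentheses); black bars are list medians and dashed lines are 2-fold. Aqp4 at 4.04 lies to the right of every listed gene, and the stratified epithelium and skeletal muscle genes lie to the left, with medians of -4.04 and -4.72.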

How the data were processed

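RNA of the intestine was sequenced from the 3' ends (QuantSeq, reads of 75 bases) in 2 pooled libraries. The counts that the authors deposited are unnormalized read numbers for each gene symbol. The submitters' processing notes name Bowtie2, RSEM and GRCm38, and the study's methods also name STAR and HTSeq. Which of them made the counts is not stated, and how they treated reads shared between genes could change low values such as those of Aqp7. From the counts, TMM factors (0.958 for WT and 1.04 for ERAP1+/-) came from edgeR 4.0.16 (R 4.3.3), followed by CPM and log2(CPM + 1). A gene was called more than 2-fold apart at a log2 difference beyond 1, with a log2 value of at least 4 in 1 or both libraries, or, for lists, at least 10 reads over both. Intervals were computed with scipy 1.17.1. The steps were run on simulated libraries with counting error alone, which checks the computation and holds no variation between mice. Changes were planted there only in genes with more reads than the aquaglyceroporins. Positions, boxes and 3' ends came from GENCODE M21. Named were all aquaporins, the 3 genes nearest to Aqp4 and to Aqp8, Erap1, up to 4 genes of the highest mean CPM per list, and genes that a count of 5 or fewer needed. S100b, Hoxa13, Guca2a, Sis, Apoa4, Bpifa2, Pip, the gastric genes and the neighbours of Aqp4 were added after their values were seen. The members and the 19 lists were chosen with earlier results of these data known. Alternatives were DESeq2 1.42.0 size factors, total counts, upper quartile factors, TMM without groups of genes, a thinned library, a pseudocount of 0.1, and other filters and thresholds. Some genes of the lists are not reported here by name.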

Additional observations from a re-analysis of the deposited data

How the results depend on the processing

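The 7 alternatives of scaling, depth and pseudocount gave 56 values for the aquaporins. All 56 kept their direction, and 55 stayed within the counting interval, the exception being Aqp8 at -0.14 with total counts. A change of pseudocount cannot reverse a direction, and the interval is wide for genes with few reads. For Aqp9, which had no read in ERAP1+/-, it was computed with 1 read there. Aqp4 ranged from 4.04 to 4.16, Aqp1 from 0.03 to 0.16, Aqp11 from -0.55 to -0.39, Aqp3 from -2.79 to -1.47 and Aqp9 from -4.43 to -1.57, where the far values of Aqp3 and Aqp9 came with a pseudocount of 0.1. The number of aquaporins more than 2-fold apart was 3 in place of 1 with no filter on low values and 3 with at least 10 reads in 1 library. Over all genes, 1434 were more than 2-fold apart without any filter and 1390 where 1 library needed 10 reads or more, against 428, and 160 at a level of 6 or more as well as past a 4-fold threshold. Scaling by total counts raised the median of all genes by 0.122 and gave 166 higher and 248 lower genes, or 59.9% lower against 74.1%. Of 144 list medians recomputed, 3 moved, which were surface colonocyte (-0.65 with total counts), stratified epithelium (-5.47 with a pseudocount of 0.1) and neutrophil (0.45 with at least 1 read). The medians of ion transport and of glycerol and stored fat genes changed sign with total counts, from -0.10 and -0.11 to 0.02 each, while no median beyond 2-fold did. No paired analysis was possible because there was only 1 library of either genotype. Depth limits Aqp5 and Aqp7, and the variation between mice cannot be estimated.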
